A study of Mus musculus with 12 samples.

Results

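The cytosolic ribosomal protein genes encode the protein parts of the ribosome outside mitochondria: Rps genes those of the small subunit, which reads the messenger RNA, and Rpl genes those of the large subunit, which joins amino acids. Cells need nearly all of these proteins in equal amounts. Their genes are therefore transcribed strongly in most dividing cells, usually from short, nucleosome-depleted promoters, and many of their messenger RNAs begin with a C followed by pyrimidines, a tract through which growth signals set their translation. Blood progenitors are known to be sensitive to their dose, since loss of a single copy of several of them causes the anaemia named after Diamond and Blackfan. Here the promoters of these genes were described in peak lists of open chromatin. The members were the mouse protein-coding genes whose symbol is Rps or Rpl followed by a number and at most a letter and further digits, without the P-stalk proteins and other symbols outside that pattern. There were 80 of them, 31 Rps and 49 Rpl, among 21883 protein-coding genes on chromosomes 1 to 19, X and Y. The pattern also takes in Rps27l, Rpl32l and the tissue-restricted copies Rpl3l, Rpl10l and Rpl39l.

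The study used ATAC-seq, in which a transposase inserts adapters into accessible DNA, on HoxB8 cells, an immortalised mouse bone marrow line grown with stem cell factor and estrogen. In such lines estrogen keeps Hoxb8 active and holds the cells as progenitors, and all 12 libraries were made 48 h after it had been withdrawn. Every library carried a guide RNA and a pMICH vector. The sgNT/Empty cells carried a guide with no target and the empty vector, sgB2/Empty cells the Asxl1 guide B2 and the empty vector, sgNT/T618I cells the guide with no target and a vector that overexpresses CSF3R T618I, and sgB2/T618I cells both the Asxl1 guide and that vector. Asxl1 is a chromatin regulator that works with Polycomb proteins, and the guide was used to truncate it, while CSF3R T618I is a mutant receptor for granulocyte colony-stimulating factor. Each group had 3 libraries. The labels do not say whether these were separate cultures, so every p-value below measures the spread between libraries only. Nothing in the labels says whether the edited cells were a clone, and the receptor was expressed from a vector and not from its own gene.

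The lists held 18484 to 32975 peaks and covered 9.23 to 17.9 Mb of mm10, with the shortest lists in sgNT/Empty replicate 1 and sgB2/Empty replicate 1. No read counts were used here, so depth was unknown. Of 10 genes that mark myeloid progenitors, 7 had a peak within 1 kb of a gene end in all 12 libraries (Mpo, Spi1, Cebpa, Cebpe, Csf3r, Kit and Myb), Ctsg had one in 11, Prtn3 in 8 and Elane in 1. Of 15 genes that define other cell types, 9 had none in any library, among them Cd3e, Pax5, Gata1, Epcam and Pecam1, while Cd3d and Klf1 had one in all 12, Col1a1 in 11, Cd79a in 6 and Epor in 5. In bulk libraries, a site that is open in fewer cells and a site that is less open in every cell cannot be told apart.

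Most ribosomal protein genes were open at an end in every library. A peak overlapping the region within 1 kb of either annotated end, called an end peak here, was found at 71 to 73 of the 80 genes per library, or 88.75 to 91.25%. Of all protein-coding genes 42.65 to 47.63% had an end peak, and of the 78 genes for mitochondrial ribosomal proteins 89.7 to 93.6%. In all 12 libraries an end peak stood at 70 of the 80 genes (87.5%), against 39.82% of all protein-coding genes. The small subunit genes reached 87.1 to 93.55% per library and the large subunit genes 87.76 to 89.8%. The members are compact, with a median annotated length of 3169.5 bp against 17170 bp for all protein-coding genes, so that the windows take in much of each gene. Of the 80 genes, 28 (35.0%) hold a snoRNA gene inside, an RNA that guides modification of ribosomal RNA, and together they hold 55 of them, whereas 1.7% of all protein-coding genes hold any.

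The 10 exceptions were of several kinds. For Rpl19, Rps2 and Rpl17, which had no end peak in any library, a peak lay inside the annotated span in all 12 libraries, and the same was true of Rpl22, with an end peak in 4 libraries, and Rps27l, with an end peak in 2. RefSeq starts lie inside the span at Rpl19, Rps2, Rpl22 and Rps27l, and at each of these genes an inner start was under a peak in 12 of 12 libraries. The other inner start of Rps27l, at 66946413 on chromosome 9, was under one in 11, with none in sgB2/Empty replicate 1. At the inner start of Rps2, on the plus strand of chromosome 17 at 24720063, the peak was 598, 693 and 796 bp wide for sgNT/Empty, 647, 608 and 636 bp for sgB2/Empty, 648, 688 and 589 bp for sgNT/T618I, and 725, 767 and 624 bp for sgB2/T618I. Those 4 groups overlapped. Counting any peak in the span or within 1 kb of it, 75 of the 80 genes (93.75%) were open in all 12 libraries, against 47.35% of all protein-coding genes.

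Only 4 members had no peak in the span or within 1 kb in any library: Rps25, Rpl32l, Rpl10l and Rpl39l. Rpl10l and Rpl39l are copies of Rpl10 and Rpl39 best known from testis, and their nearest peaks lay a median 384 kb and 112 kb away. Rps25, in contrast, encodes a standard small subunit protein, which helps ribosomes start at viral internal entry sites, and its nearest peak was a median 7.38 kb away (1.94 to 7.45 kb over the 12 libraries). Read coverage and mappability at Rps25 were not analysed here. At Rpl32l that distance was a median 10.5 kb. Rps4x, an X-linked small subunit gene, had an end peak in 11 libraries. That peak was 365, 378 and 629 bp wide for sgNT/Empty, 379, 343 and 377 bp for sgB2/Empty, 698, 702 and 655 bp for sgNT/T618I, and 631 and 571 bp in replicates 2 and 3 of sgB2/T618I, with none in replicate 1. So 5 of the 6 Empty libraries were narrower than every T618I library with a peak, and sgNT/Empty replicate 3 was not. With the missing peak counted as 0 bp, the log2 change of Rps4x with T618I was -0.09 ± 0.26 (SE; limma adjusted p = 0.819). Rpl3l, a muscle copy of Rpl3, had an end peak in all 12 libraries, but at the far end of the gene, within 1 kb of Msrb1, and neither of its RefSeq starts was in a peak.

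Most members with a known RefSeq start had a peak over it, though this was not always the end peak. At Rpl18 the end peak lay elsewhere, as described below. At Rpl4 the mean rank was 59.32 for the peak over the start and 72.05 for the end peak. RefSeq promoter windows were at hand for 61 of the 80 genes, and 55 of these (90.16%) had a start under a peak in all 12 libraries, Rps4x had one in 11, and Rps25, Rpl32l, Rpl10l, Rpl39l and Rpl3l had none. Over all protein-coding genes with such a window the share was 38.42% of 17491. The peaks reached a median 309.5 bp upstream and 306 bp downstream of the start, with quartiles of 218 to 426 bp and 244 to 385 bp. The medians over all protein-coding genes with an open start were 319 and 347.5 bp. The peak reached further upstream than downstream at 25 of the 55 genes (45.45%), and at 44.36% of all genes with an open start. Rpl10 was the most one-sided towards upstream, with 862 bp upstream and 71 bp downstream, and Rpl13a had 479 and 57 bp. At Rpl24 the order was opposite, with 38 bp upstream and 424 bp downstream.

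**Figure D1:**
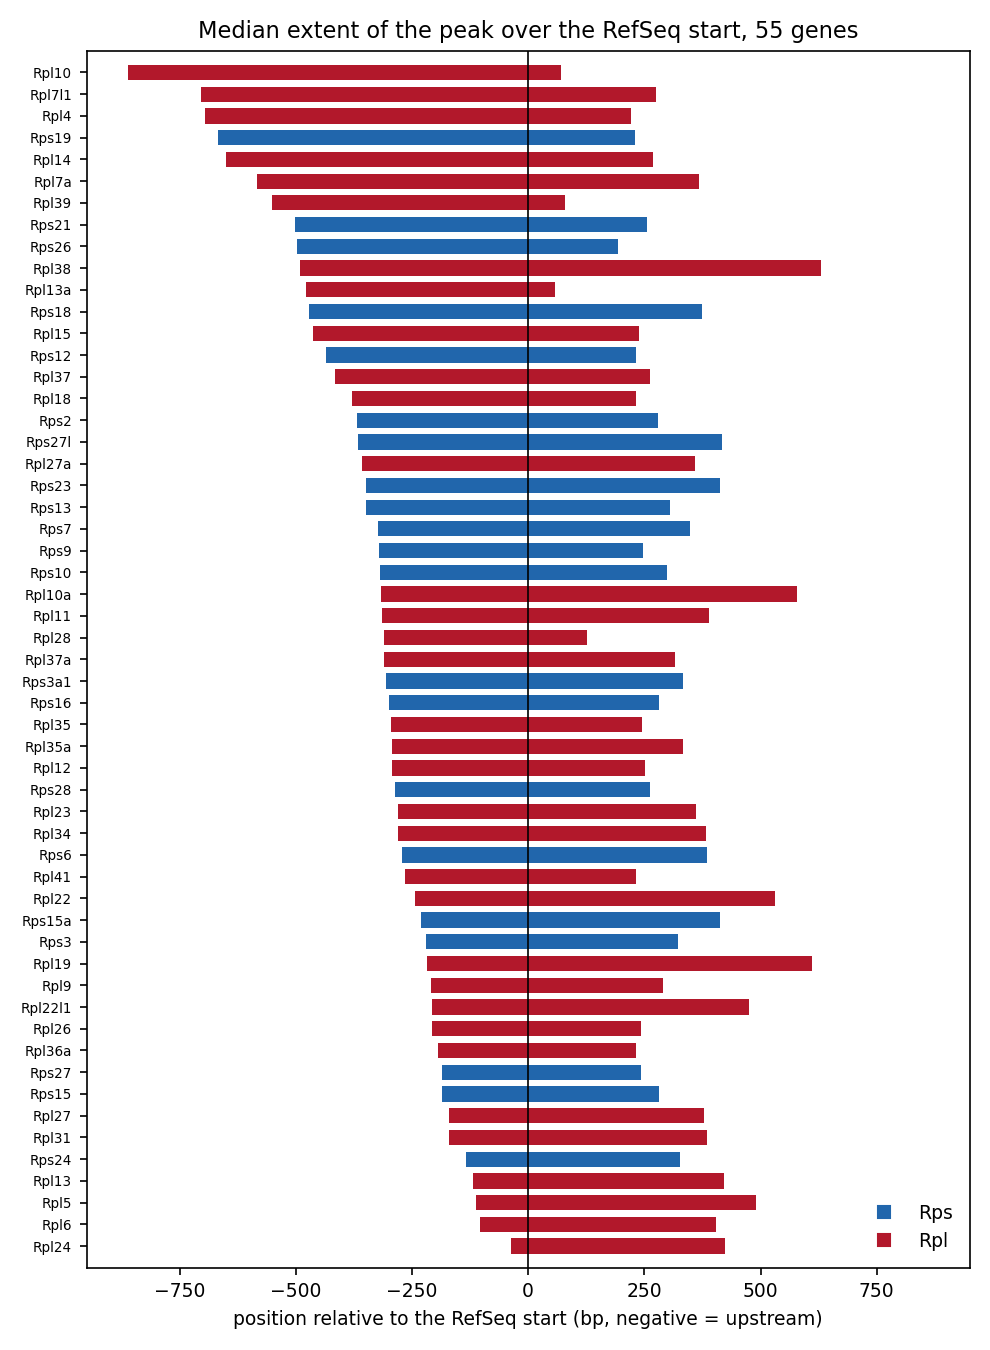
Median extent over 12 libraries of the peak that covers the RefSeq start, for the 55 ribosomal protein genes whose start is under a peak in all 12, ordered by upstream reach; the x axis is distance from the start in bp, and blue bars are Rps and red bars Rpl genes. The bars are about evenly placed around the start at their median (309.5 bp upstream, 306 bp downstream), with Rpl10 reaching furthest upstream and Rpl24 least.

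The end peaks ranked high in their lists and were slightly narrower than those of other genes. Strength was read as the percentile of a peak's −log10 p, the authors' own value, among all peaks of its library, with 100 the strongest. The median member peak stood at percentile 82.84 to 87.85 per library, against 71.63 to 81.06 for all protein-coding genes with an end peak and 68.97 to 83.54 for mitochondrial ribosomal protein genes. Averaged over the 12 libraries, 22 of the 70 genes (31.43%) were above percentile 90 and none was below 50, whereas 25.88% of all genes open in 12 libraries were above 90 and 9.06% below 50. The median peak was 523 to 726 bp wide, and in every library this was less than over all genes, at 0.926 to 0.977 of their median. A mean width above 1000 bp was found at 4 of the 70 members (5.71%) and at 16.69% of all genes open in 12 libraries. Across the 70 genes mean rank and mean width had a Spearman rho of 0.15, given as a description, since the genes share libraries and are not independent.

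The strongest peak belonged to Rpl13a, whose protein also takes part in repression of inflammatory messenger RNAs. Its rank was 99.79, 99.45 and 98.92 for sgNT/Empty, 98.0, 98.59 and 98.56 for sgB2/Empty, 99.84, 99.4 and 99.45 for sgNT/T618I, and 99.77, 99.73 and 99.2 for sgB2/T618I. All 12 values were at percentile 98.0 or above. Rpl27, with a mean rank of 98.43, and Rps19, with 97.21, followed. Rps19, the gene most often mutated in Diamond-Blackfan anaemia, had a peak of 826 to 1008 bp, and Rpl27 one of 385 to 620 bp. The weakest of the 70 peaks were at Rpl35a (mean rank 57.95), Rpl35 (58.0) and Rpl6 (60.22), all large subunit genes. For Rpl35a the rank was 40.87, 66.83 and 66.03 for sgNT/Empty, 46.11, 56.1 and 67.55 for sgB2/Empty, 64.98, 59.59 and 47.52 for sgNT/T618I, and 46.97, 80.16 and 52.7 for sgB2/T618I. None of its 12 values reached any of those of Rpl13a, and the 4 groups overlapped.

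The bases from 100 before to 20 after the RefSeq start are given for the 3 strongest, the 2 weakest and 3 closed members. Coordinates are those of build GRCm38.p6, the same as in mm10. Rpl32l, the remaining closed member, is not printed. Capitals mark matches, on either strand, to the ETS letters CCGGAAG, the SP1 letters GGGCGG and the CCAAT box, and the start is base 101. The stretches are chr7:45128726-45128845 (minus strand) for Rpl13a, chr11:101442145-101442264 (plus) for Rpl27, chr7:24884492-24884611 (plus) for Rps19, chr16:33056353-33056472 (plus) for Rpl35a, chr2:39005112-39005231 (minus) for Rpl35, chr9:44407614-44407733 (plus) for Rps25, chr16:10170128-10170247 (plus) for Rpl39l and chr12:66284382-66284501 (minus) for Rpl10l.
Rpl13a: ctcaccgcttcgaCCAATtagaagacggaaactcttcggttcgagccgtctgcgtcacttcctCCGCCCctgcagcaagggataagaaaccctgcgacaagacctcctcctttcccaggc
Rpl27: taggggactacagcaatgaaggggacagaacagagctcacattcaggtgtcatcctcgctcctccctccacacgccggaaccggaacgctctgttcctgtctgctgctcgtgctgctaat
Rps19: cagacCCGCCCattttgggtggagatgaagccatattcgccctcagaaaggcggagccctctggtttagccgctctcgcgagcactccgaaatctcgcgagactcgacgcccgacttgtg
Rpl35a: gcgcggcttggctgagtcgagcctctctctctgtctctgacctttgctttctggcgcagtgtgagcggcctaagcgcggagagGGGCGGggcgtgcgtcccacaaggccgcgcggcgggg
Rpl35: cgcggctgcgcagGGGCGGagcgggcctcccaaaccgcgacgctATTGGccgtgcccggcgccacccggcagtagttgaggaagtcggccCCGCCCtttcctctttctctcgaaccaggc
Rps25: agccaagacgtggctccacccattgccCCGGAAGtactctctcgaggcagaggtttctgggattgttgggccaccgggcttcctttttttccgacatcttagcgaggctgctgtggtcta
Rpl39l: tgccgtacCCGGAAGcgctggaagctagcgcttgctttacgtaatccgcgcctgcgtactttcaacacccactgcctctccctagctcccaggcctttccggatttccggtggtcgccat
Rpl10l: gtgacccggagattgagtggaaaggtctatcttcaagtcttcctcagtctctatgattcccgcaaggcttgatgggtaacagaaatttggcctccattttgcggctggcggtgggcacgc

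In these 8 stretches no closed member had an SP1 match or a CCAAT box and no open member had the full ETS letters. For the SP1 and ETS letters this split did not hold in the longer windows of 300 bases described below. There the open Rpl35 had the ETS letters and the closed Rpl10l had an SP1 match. Of the 63 member windows with the start in a peak in all 12 libraries, 23 had the ETS letters. SP1 matches were in 4 of the 5 open and 0 of the 3 closed stretches, CCAAT boxes in 2 and 0, and ETS letters in 0 and 2. Strong and weak open members were not set apart by them. Rpl13a had a CCAAT box and an SP1 match and Rps19 an SP1 match, but the weaker Rpl35a had an SP1 match too, and Rpl35 had a CCAAT box and 2 SP1 matches. Rpl27, the second strongest, had none of the 3 in this stretch. Rps25 and Rpl39l, without a peak in any library, each carried the full ETS letters. Only that of Rpl35 had a C at base 101 followed by 4 pyrimidines (CTCTT).

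As a family, however, the members carried some letters more often than other promoters. The search covered 73 windows of 61 members, from 250 bases before to 50 after each start, on both strands. The ETS letters CCGGAAG, bound by factors such as GABPA, were in 25 of the 73 windows (34.25%), against 11.56% of 21262 windows of all protein-coding genes and 24.62% of the 7473 windows whose start was open in all 12 libraries. The letters AAGATGGC, recognised by YY1, were in 8 (10.96%), against 3.05% and 6.13%. A C at the start followed by 4 pyrimidines was found at 13 windows (17.81%), among them those of Rps6, Rps10, Rps15a, Rps18 and Rpl15, against 2.21% of all windows and 2.09% of the open ones. The SP1 letters GGGCGG went the other way relative to open promoters, with 57.53% of member windows against 46.2% of all and 72.72% of open windows, as did the CCAAT box, with 27.4% against 38.19% and 41.59%. The TATA letters TATAAA were in 7 windows (9.59%; 12.6% of all, 5.17% of open windows), the E-box CACGTG in 8 (10.96%; 7.84% and 11.87%) and the NRF1 letters GCGCATGC in 3 (4.11%; 3.51% and 7.27%). Restricting the members to the 63 windows with an open start gave 36.51% for ETS, 11.11% for YY1 and 19.05% for the pyrimidine start. The median GC content was 57.0% in member windows, 56.33% in all windows and 62.67% in open windows. Windows of the same gene overlap, so that the 73 are not independent, and a match is no evidence of binding. The pyrimidine start was searched only at the annotated start base, so that a tract beginning some bases away was not counted.

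The widest end peak was at Rpl7, which lies next to Rdh10, with 1858 ± 167 bp (SD, n = 12), followed by Rpl3l with 1319 ± 454 bp, Rpl38 with 1145 ± 102 bp and Rpl10 with 1016 ± 181 bp. Among the narrowest were those of Rpl8 (437 ± 62.8 bp) and Rpl28 (449 ± 63.6 bp). In 17 of the 70 genes the end peak lay within 1 kb of the end of another protein-coding gene, so that its width may belong to either. The width varied between libraries about as much as elsewhere, with a median coefficient of variation of 14.81% for the 70 members and 15.66% for all genes open in 12 libraries. It varied least at Rpl30 (4.12%) and most at Rpl18 (64.56%). At Rpl3l the peak was 350 bp in sgNT/Empty replicate 1 and 365 bp in sgB2/Empty replicate 1, the shortest lists, and 1383 to 1618 bp in the other 10 libraries.

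**Figure D2:**
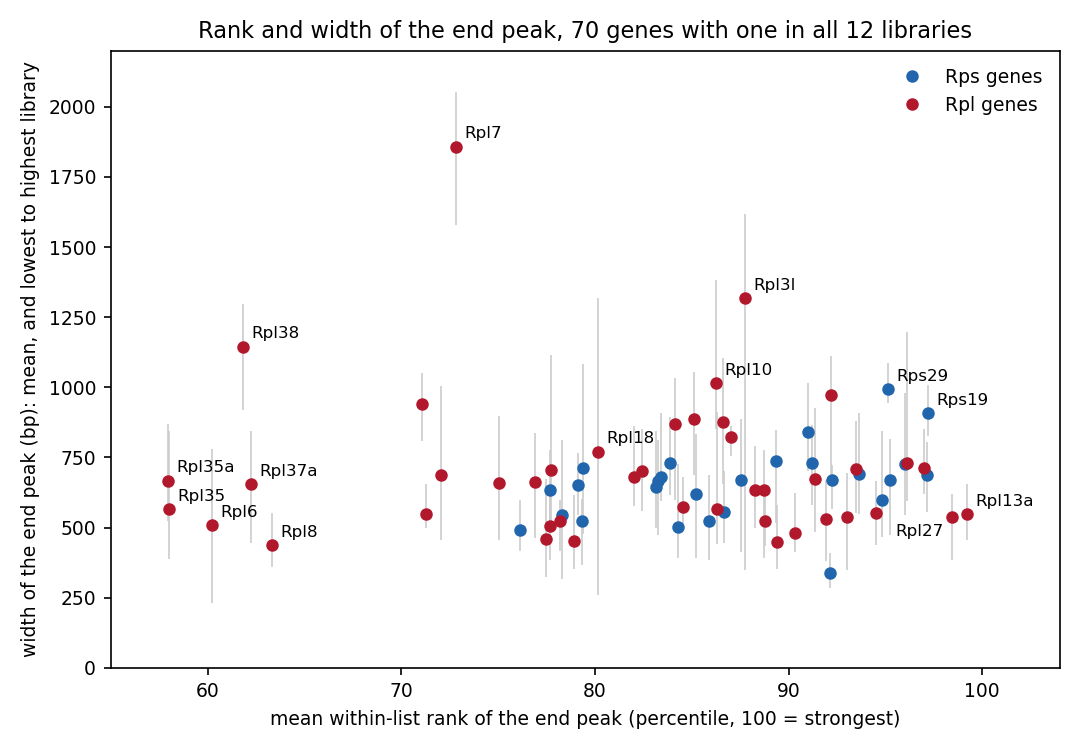
Mean within-list rank (x, percentile) and width (y, bp; point = mean, grey line = lowest to highest of 12 libraries) of the end peak for the 70 genes open at an end in all 12 libraries. Most genes lie between percentile 70 and 100 and below 1000 bp; Rpl7 is the widest at 1858 bp, Rpl18 and Rpl3l have the longest ranges, and Rpl13a the highest rank at 99.22.

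On average, peaks at ribosomal protein genes were wider with T618I and narrower with sgB2, and so were peaks at all genes. The median width over members was 542, 663 and 699.5 bp for sgNT/Empty, 523, 569.5 and 614 bp for sgB2/Empty, 726, 717 and 679 bp for sgNT/T618I, and 644, 703 and 608 bp for sgB2/T618I. The T618I and Empty libraries overlapped, as did the sgB2 and sgNT libraries, and these median widths were not tested. The mean of these medians was 679.5 ± 45.8 bp with T618I and 601.8 ± 69.7 bp with Empty (SD, n = 6), a difference of 77.7 bp, against 70.0 bp for all protein-coding genes and 62.0 bp for mitochondrial ribosomal protein genes. The sgB2 libraries averaged 610.2 ± 61.7 bp, against 671.1 ± 67.4 bp in the sgNT libraries (SD, n = 6), a difference of -60.8 bp, against -55.0 bp for all protein-coding genes and -34.2 bp for mitochondrial ribosomal protein genes. The shortest list of a group had its lowest member median in sgNT/Empty, sgB2/Empty and sgB2/T618I. In sgNT/T618I it was the longest list, replicate 3 with 29642 peaks, that had the lowest, 679 bp, and the shortest, replicate 2 with 26112 peaks, had 717 bp. In lists cut to equal length the T618I difference was 77.5 bp, and without both of the shortest lists it was 43.0 bp.

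The share of members with an end peak, and their rank in the lists as deposited, differed between the groups by less than the spread between libraries, whereas in lists of equal length the rank was lower with T618I by more than that spread. The share was 89.38 ± 1.05% with T618I and 89.17 ± 0.65% with Empty (SD, n = 6), a difference of 0.21 percentage points, which is smaller than either spread. With sgB2 it was 88.96 ± 0.51% and with sgNT 89.58 ± 1.02%, a difference of -0.63 points. The median rank was 85.69 ± 1.66 with T618I and 85.82 ± 1.83 with Empty, and 85.58 ± 1.69 with sgB2 and 85.93 ± 1.78 with sgNT (SD, n = 6 each). When each list was first cut to its 18484 strongest peaks, the length of the shortest, the median rank became 78.8 ± 0.80 with T618I and 81.8 ± 1.08 with Empty, a difference of -2.94 percentiles (pooled SD within groups 1.05). The difference was -0.68 for all protein-coding genes (pooled SD 0.39), also more than their spread. For mitochondrial ribosomal protein genes it was -1.33 (pooled SD 2.74). In these equal lists the T618I libraries spanned 77.81 to 80.15 and the Empty libraries 80.13 to 82.91, so that they overlapped only between sgNT/T618I replicate 1 and sgNT/Empty replicate 3.

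**Figure D3:**
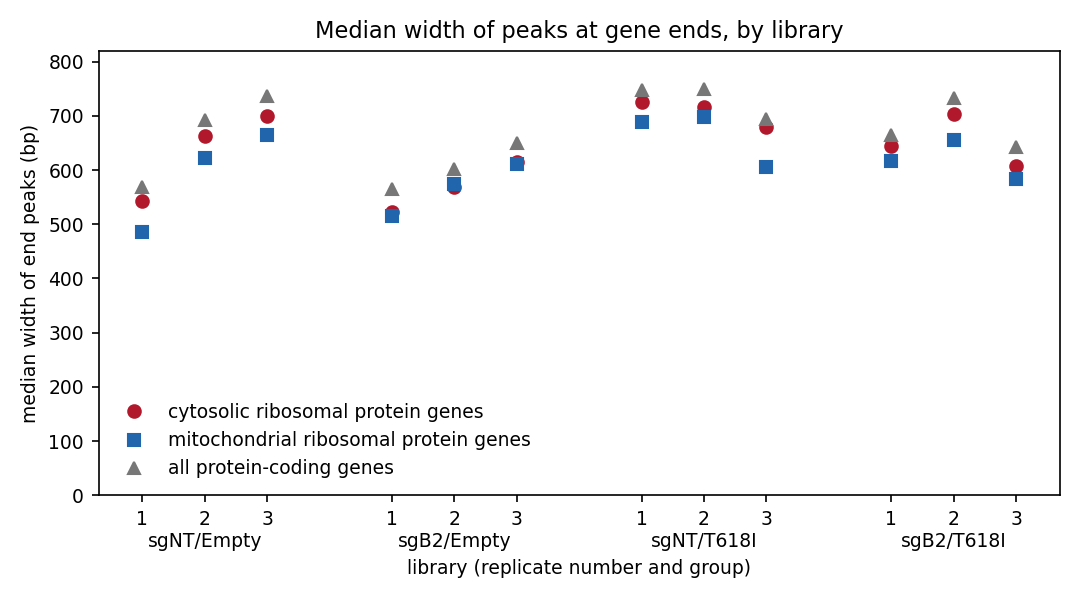
Median width in bp of end peaks (y) in each of the 12 libraries (x, by group and replicate) for cytosolic ribosomal protein genes (circles), mitochondrial ribosomal protein genes (squares) and all protein-coding genes (triangles). The circles lie just below the triangles in every library, at 0.926 to 0.977 of them, and both follow the same course from group to group.

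For the test of single genes, the peak-covered length within 1 kb of the gene ends was brought to the same total for every list. A constant of 200 bp was then added and the log2 values were fitted with limma over all 12 libraries, for the 9672 genes whose mean reached 200 bp. This took in 71 of the 80 members, of which Rps4x was at 0 bp in 1 library; fold changes are on this log2(length + 200 bp) scale and understate changes of short regions. With T618I, averaged over both guides, none of the 71 members passed an adjusted p of 0.05 (limma), while 81 of the 9672 genes did (0.837%). At an unadjusted p below 0.05, 12 members were lower and 1 was higher, 13 of 71, and the background at that threshold was 16.1%, made up of 12.5% lower and 3.54% higher. The median change was -0.15 for the members and -0.14 for all genes tested. Of the members, 65 had a negative and 6 a positive change, against 7584 and 2088 of the 9672 genes tested. Without the scaling to equal total length the member median turned to 0.10, as did that of all genes. For 70 of the 71 members the 95% interval of the change (limma SE, 8 degrees of freedom) lay within a log2 change of 1 in either direction, and for 53 within 0.5.

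Among the 5 smallest p-values with T618I were those of Rpl18, Rpl31, Rps23 and Rps16, with log2 changes of 0.81 ± 0.22, -0.29 ± 0.10, -0.26 ± 0.09 and -0.32 ± 0.12 (SE; limma adjusted p = 0.131 to 0.263). In 2 of the 71 members, Rps23 among them, the 6 T618I libraries all lay below the 6 Empty libraries, where 0.755% of all genes tested did so, and no member had them all above (background 0.3%). Rps23 encodes a small subunit protein at the decoding centre. Its scaled covered length was 916, 839 and 697 bp for sgNT/Empty, 859, 746 and 908 bp for sgB2/Empty, 672, 675 and 659 bp for sgNT/T618I, and 605, 674 and 653 bp for sgB2/T618I. The highest value came from the shortest list, which the scaling multiplies most. Unscaled, the log2 change of Rps23 was -0.0044 ± 0.11 (SE; limma adjusted p = 0.984).

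**Figure D4:**
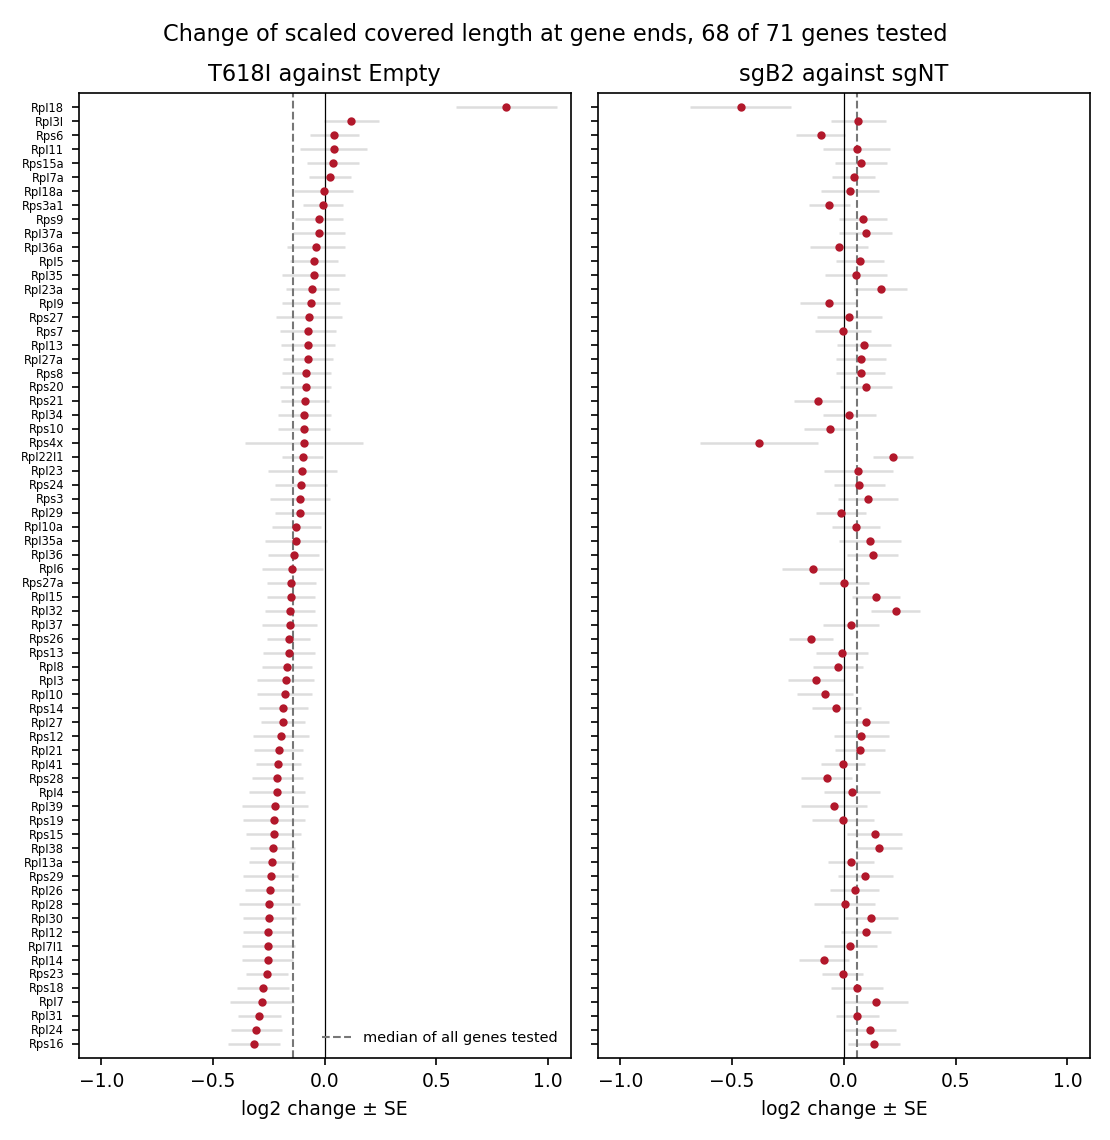
Log2 change ± SE (x) of scaled covered length at gene ends for 68 of the 71 ribosomal protein genes tested (rows, ordered by the T618I change), for T618I against Empty averaged over guides (left) and sgB2 against sgNT averaged over vectors (right); the dashed line is the median of all genes tested. In both panels the points gather around the dashed line, at -0.14 on the left and 0.06 on the right, and Rpl18 stands apart at 0.81 on the left.

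Rpl18 was the member that differed most with T618I, but the peak that differed was not at its own start. The annotated span of Rpl18 runs from 45715467 to 45720835 on chromosome 7 (plus strand). Over the 12 libraries its end peaks lay between 45715054 and 45716371. That region holds a RefSeq start of Sphk2, the sphingosine kinase gene on the opposite strand, at 45715207. Whether the peak of each library covered this Sphk2 start was not examined. The peak was 333, 299 and 1197 bp wide for sgNT/Empty, 291, 258 and 299 bp for sgB2/Empty, 1297, 1289 and 1317 bp for sgNT/T618I, and 1120, 1242 and 301 bp for sgB2/T618I. The widths fell into a narrow set of 258 to 333 bp and a wide set of 1120 to 1317 bp with nothing between, and 5 of 6 Empty libraries were narrow while 5 of 6 T618I libraries were wide. The RefSeq start of Rpl18 itself is at 45718071, inside the span, beside another Sphk2 start at 45718002. The peak there was present in all 12 libraries, with 602, 616 and 683 bp for sgNT/Empty, 667, 472 and 769 bp for sgB2/Empty, 666, 616 and 501 bp for sgNT/T618I, and 604, 683 and 610 bp for sgB2/T618I. Those widths overlapped between all 4 groups.

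The change at the Sphk2 side of Rpl18 did not pass the test with all libraries (limma adjusted p = 0.131), and its interval was 0.30 to 1.33. It passed when either exceptional library was left out, with a log2 change of 0.98 without sgNT/Empty replicate 3 (limma adjusted p = 0.0368) and 1.02 without sgB2/T618I replicate 3 (limma adjusted p = 0.0208). Each of these libraries had a width unlike the others of its group. Leaving it out therefore narrows the spread and is not an independent test. Over 25 other settings of the fit the change was 0.52 to 1.05 and the limma adjusted p 0.0208 to 0.314, below 0.05 in those 2 fits. Within sgNT cells it was 0.82 ± 0.32 and within sgB2 cells 0.80 ± 0.32, and the test of their difference gave -0.02 ± 0.45 (SE; limma adjusted p = 1.0).

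**Figure D5:**
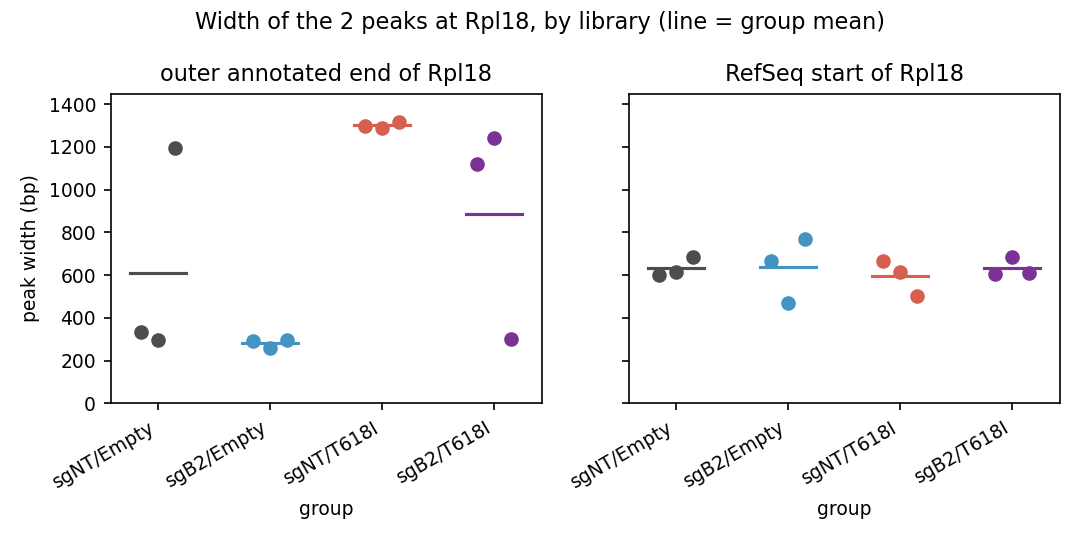
Width in bp (y) of the peak at the outer annotated end of Rpl18, in a region that holds a Sphk2 start (left), and of the peak at the RefSeq start of Rpl18 (right), by group (x). Points are libraries and lines are group means. On the left the libraries split into 258 to 333 bp and 1120 to 1317 bp; on the right all 12 lie between 472 and 769 bp.

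With sgB2, averaged over both vectors, again none of the 71 members passed (limma adjusted p of at least 0.616), while 79 of the 9672 genes did (0.817%). At an unadjusted p below 0.05 the count was 1 of 71, against 6.84% of all genes tested (limma). That member was Rpl22l1, a paralogue that can take the place of Rpl22 and whose expression Rpl22 is known to repress, with a log2 change of 0.22 ± 0.09 (SE; limma adjusted p = 0.616). Its scaled covered length was 736, 622 and 578 bp for sgNT/Empty, 891, 762 and 726 bp for sgB2/Empty, 576, 620 and 588 bp for sgNT/T618I, and 672, 724 and 755 bp for sgB2/T618I. Apart from sgNT/Empty replicate 1, every sgNT library lay below every sgB2 library, and that library was the shortest list. The median change was 0.05 for the members and 0.06 for all genes tested, and unscaled it was -0.09 and -0.08. The 95% interval lay within a log2 change of 1 for all 71 members and within 0.5 for 69. Rpl32, Rpl18 and Rpl38 had the next smallest p-values, with changes of 0.23 ± 0.11, -0.46 ± 0.22 and 0.16 ± 0.10 (SE; limma adjusted p = 0.735 to 0.892).

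No member passed in the other 5 comparisons (limma), in which 3 genes (0.031%) passed for the interaction, 9 (0.0931%) for T618I in sgNT cells, 50 (0.517%) for T618I in sgB2 cells, 33 (0.341%) for sgB2 in Empty cells and 27 (0.279%) for sgB2 in T618I cells. At an unadjusted p below 0.05 the members numbered 0 of 71 for the interaction (3.6% of all genes tested), 3 for T618I in sgNT cells (6.75%), 6 for T618I in sgB2 cells (9.01%), and 0 for sgB2 in Empty cells (6.47%) and in T618I cells (4.29%). The T618I change in sgB2 cells and that in sgNT cells were thus not shown to differ at any member. The interval for the interaction lay within a log2 change of 1 for 69 of 71 members but within 0.5 for only 5, so that smaller differences between the backgrounds could not be resolved.

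The 3 members on chromosome 1, Rpl7, Rpl31 and Rpl37a, had an end peak in all 12 libraries and changes with sgB2 of 0.14 ± 0.14, 0.06 ± 0.10 and 0.10 ± 0.12 (SE), none of which passed (limma adjusted p = 0.892 to 0.901). The rank of Rpl31 was 88.15, 92.86 and 89.59 for sgNT/Empty, 96.95, 97.39 and 97.76 for sgB2/Empty, 93.65, 92.14 and 93.03 for sgNT/T618I, and 99.26, 97.73 and 95.41 for sgB2/T618I, so that all 6 sgB2 libraries stood above the 6 sgNT libraries. In lists of equal length it was 83.27 to 90.18 in the sgNT libraries and 94.12 to 99.0 in the sgB2 libraries, which did not overlap either. In scaled covered length no member had its 6 sgB2 libraries all above (0.289% of all genes tested) or all below (0.341%) the 6 sgNT libraries. In rank within the lists as deposited, Rpl31 was the only one of the 70 members with such a separation upwards, a share near the background, since 1.49% of the 8713 genes open in 12 libraries had it, and none had it downwards (0.471%). No member was separated by T618I in rank in either direction (1.18% of all genes upwards and 0.425% downwards). Rpl37a was at 46.86 to 64.88 in the sgNT libraries and 62.34 to 77.57 in the sgB2 libraries, which overlapped, and Rpl7 at 52.5 to 78.43 and 68.94 to 85.42. The 4 members on chromosome X had changes with sgB2 of -0.38 ± 0.26 (Rps4x), -0.09 ± 0.12 (Rpl10), -0.05 ± 0.15 (Rpl39) and -0.02 ± 0.13 (Rpl36a), and none passed (limma adjusted p = 0.892 to 0.971). The median change over the 73 other members, of which 64 were tested, was 0.05.

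All 22 members mutated in Diamond-Blackfan anaemia had an end peak in every library, and none passed in either averaged comparison (limma), with 3 of 22 at an unadjusted p below 0.05 with T618I (Rpl18, Rpl31 and Rpl26; background 16.1%) and 0 with sgB2 (background 6.84%). Their median change was -0.10 with T618I and 0.05 with sgB2. Rpl5 and Rpl11, which bind 5S ribosomal RNA and, when free, hold back the p53 ligase Mdm2, changed by -0.05 ± 0.11 and 0.04 ± 0.15 with T618I and by 0.07 ± 0.11 and 0.06 ± 0.15 with sgB2 (SE; limma adjusted p = 0.775 to 0.941). At Rpl11 the peak was 483, 718 and 798 bp for sgNT/Empty, 532, 529 and 595 bp for sgB2/Empty, 1114, 758 and 524 bp for sgNT/T618I, and 1097, 737 and 581 bp for sgB2/T618I. Its T618I libraries held both the widest and some of the narrowest values. The other paralogues tested, Rpl7l1 and Rpl3l, had T618I changes of -0.25 ± 0.12 and 0.12 ± 0.12 (SE; limma adjusted p = 0.307 and 0.527).

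With T618I none passed among 71 tested genes for mitochondrial ribosomal proteins (median -0.14), 8 ribosomal protein genes outside the symbol pattern such as Rplp0, Rplp1 and Rack1 (median -0.22), 17 genes of translation factors and other pyrimidine-start messages (median -0.19), and 34 genes of ribosome assembly (median -0.17), by limma. At an unadjusted p below 0.05 these lists had 7, 0, 0 and 2 genes, where 16.1% of all genes tested passed it. Each of the 8 genes outside the pattern had a negative change, from -0.26 to -0.16, below the median of all genes tested, -0.14. Of the 9672 genes tested, 7584 had a negative change. With sgB2 none passed either (limma), and the medians were 0.06, 0.09, 0.06 and 0.07.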

How the data were processed

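Peak lists from 12 ATAC-seq libraries were deposited, 1 per library. Per the submitters' processing notes, BWA 0.7.17, SAMtools 1.9, bedtools 2.30, deepTools 3.5, MACS2 2.2.7.1 and build mm10 were used; settings are not given in the sources used here. The deposited score and the deposited ratio (fold over background) were not used for comparisons; the deposited −log10 p ranked peaks within a list, and the deposited −log10 q served a stricter filter.

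Genes came from RefSeq for GRCm38.p6. The end peak of a gene was the peak with the highest −log10 p overlapping the region within 1 kb of either end by at least 1 bp. Covered length was scaled to the mean total of the 12 lists (14000097 bp), and log2(length + 200 bp) was fitted with limma 3.58.1 (trend; R 4.3.3) to the 4 groups, with Benjamini-Hochberg adjustment over 9672 genes and a threshold of 0.05. Tables were made with python 3.11.15, numpy 2.4.6 and pandas 2.3.3. On simulated data for T618I averaged over guides (9672 genes), the fit recovered 84 of 100 changes of log2 size 1 and 47 of 100 of size 0.5, with 11 other calls.

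Members, gene lists, tests and naming rules were chosen with earlier results of these data known. Named members were those on chromosomes 1 and X, those without a constant end peak, the 5 smallest p-values per averaged comparison, the extremes of width and rank, and the disease, 5S and paralogue lists. Promoter windows for 61 members came from RefSeq; the other 19 were not analysed by sequence. Alternatives changed the window, filters, scaling, added length, list length and libraries. Some results are not reported here because they are withheld for evaluation.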

Additional observations from a re-analysis of the deposited data

How the results depend on the processing

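Of 335 recomputed values, 330 stayed within 1.5 times (counts) or moved by less than the spread between libraries (differences with no test). The 335 include 175 counts of members passing, each 0 in the main fit, for which a factor of 1.5 says little. Several small differences with no test still changed sign when 1 library was left out. The T618I difference in share ran from -0.10 to 0.52 points, negative without sgNT/T618I replicate 3. That in rank ran from -0.87 to 0.32, positive without 6 libraries (sgNT/Empty replicates 2 and 3, sgB2/Empty replicate 3, sgNT/T618I replicate 2 and sgB2/T618I replicates 1 and 3). The sgB2 difference in rank ran from -1.09 to 0.10, positive without sgNT/Empty replicate 2 or 3 or sgB2/T618I replicate 3. The differences in median scaled covered length (log2) ran from -0.14 to -0.05 with T618I, nearest 0 without sgNT/Empty replicate 1, and from 0.0057 to 0.09 with sgB2, nearest 0 without sgNT/Empty replicate 3. Other settings also turned small differences: the T618I share was -0.21 points with 500 bp windows or any peak in the span and -0.42 with 100 bp of overlap, and in lists of equal length the sgB2 rank was 0.13 and the T618I covered length -0.0073. Without single libraries the width differences were 54.5 to 93.8 bp with T618I and -84.0 to -44.7 bp with sgB2. The remaining 5 values moved more. In lists of equal length the T618I difference in median member rank moved from -0.13 to -2.94 percentiles. Without scaling to equal total covered length, the median scaled covered length at member ends moved to 0.14 with T618I and to -0.10 with sgB2 (log2). Leaving out 1 library at a time gave 0 to 1 members passing with T618I and 0 in the other 6 comparisons; the member was Rpl18, without sgNT/Empty replicate 3 or sgB2/T618I replicate 3. Numbers of all genes passing varied more: with T618I 81, and 42 to 131 without single libraries, 149 unscaled (141 higher, 8 lower, against 56 and 25), 139 with no minimum length, 42 with at least 500 bp, 47 with 500 bp windows and 51 with the stricter q; with sgB2 79, and 48 to 100 without single libraries and 35 with at least 500 bp. The replicate block gave 0 members in all 7 comparisons, with 91 and 80 genes passing for T618I and sgB2. On average, same-numbered libraries did not deviate together (mean correlation 0.02 over 18 pairs, -0.158 to 0.247, against -0.01 for 36 other pairs), so the numbers were not taken as pairs. Between sgNT/Empty and sgB2/Empty, however, the same-numbered pairs were at 0.247, 0.0457 and 0.24, against -0.265 to 0.148 for the other pairs of these groups. Without both of the shortest lists (an alternative chosen after seeing the data) 0 members passed. Peak lists carry no depth, so no limit from depth can be given.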
